A study of Mus musculus with 2 samples.

Results

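The fatty acid binding proteins Fabp3, Fabp4, Fabp5 and Fabp7 and the acyl-CoA binding protein Dbi were matched by symbol among the 32285 genes of the count table, and all 5 were found. They were described in single cells from the mouse dentate gyrus, a part of the hippocampus that goes on producing granule neurons after birth. Mice were at postnatal day 30. The study held conditional knockouts (cKO; Nestin-Cre transgene, Phf2flox/flox) and controls (Nestin-Cre transgene, Phf2+/+), with 4 mice per genotype and 1 library each, so every animal carried the Nestin-Cre transgene. Nestin-Cre drives recombination in neural stem cells and their neuronal and glial descendants, and not in one cell type alone. Droplet single-cell RNA sequencing counted unique molecular identifiers (UMIs), which tag single captured messenger RNAs, in cells released from the tissue with enzymes.

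The count table marked the libraries by a barcode suffix, and no label or header tied a suffix to a genotype. They are called library 1 and library 2, the level of Phf2 was not used to tell them apart, and no comparison of cKO with control was made. Each value below is given for library 1 and then library 2, as CPM, the UMIs of a gene per 1000000 UMIs of the class. Libraries held 102897659 and 107266420 UMIs, of which 8029 and 8129 cells were kept, with medians of 8092 and 7232 UMIs. 22 cell barcodes occurred in both libraries. The cells formed 35 clusters and 18 reported classes. A class name means "like that type by its markers", and no member of the set was a marker or entered the clustering. 403 cells (5.02%) and 443 cells (5.45%) stayed unnamed.

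Fatty acid binding proteins are small cytosolic carriers that hold one long-chain fatty acid or related lipid inside a barrel and move it between membranes, enzymes and the nucleus. Fabp7, the brain type, is the carrier by which radial glia are commonly recognised and prefers polyunsaturated fatty acids. Fabp5, the epidermal type, is found in neurons and glia, and can carry ligands to the nuclear receptor PPARδ. Fabp3 is the heart type, known from muscle and mature neurons, and Fabp4 is the type of adipocytes, macrophages and small-vessel endothelium. Dbi encodes the acyl-CoA binding protein, which is unrelated in sequence. It holds activated fatty acids, and when secreted it and its peptides act on GABA-A receptors and on the mitochondrial protein Tspo.

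The genes lie apart in the mouse genome (GRCm38). Fabp5 (ENSMUSG00000027533) is at chr3:10012548-10016607 on the plus strand. Fabp4 (ENSMUSG00000062515) is at chr3:10204088-10208576 on the minus strand, 187480 bases from Fabp5. Fabp7 (ENSMUSG00000019874) is at chr10:57784881-57788450, plus strand. Fabp3 (ENSMUSG00000028773) is at chr4:130308595-130315463, plus strand. Dbi (ENSMUSG00000026385) is at chr1:120113280-120121078, minus strand. All 5 are protein-coding. In the last 400 bases of the transcript, Dbi shares 93.6% identity over 220 bases with the processed pseudogene Gm12222, and Fabp3 shares 98.8% over 162 bases with Fabp3-ps1. Neither pseudogene is a row of the count table, so how shared reads were assigned is not known here.

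Fabp7 and Dbi each had their highest level among the named classes in stem-like cells and both were lower in the progenitors, so the sequences just upstream of their first exon base are shown. They are from RefSeq (GRCm38.p6), written 5′ to 3′ on the strand of the gene, with motif matches in capitals. The Fabp7 window is chr10:57784673-57784880 on the plus strand and the Dbi window is chr1:120121079-120121169 on the minus strand.
Fabp7: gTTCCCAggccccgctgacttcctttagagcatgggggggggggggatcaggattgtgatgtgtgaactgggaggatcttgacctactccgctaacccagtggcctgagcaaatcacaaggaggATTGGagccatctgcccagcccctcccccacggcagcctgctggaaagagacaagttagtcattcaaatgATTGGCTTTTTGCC
Dbi: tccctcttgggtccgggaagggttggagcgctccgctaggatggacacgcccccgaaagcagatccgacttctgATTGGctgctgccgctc
Both strands were searched for the RBPJ motif TGGGAA, the CCAAT box CCAAT, an NFI pair (TTGGC and GCC with 5 bases between them), a PPAR direct repeat (AGGTCA at both ends with 1 base between) and the sterol response element TCACNCCAC. The motifs were chosen with the sequences in view. The Fabp7 window held 1 RBPJ match, 2 CCAAT boxes and 1 NFI pair that overlaps the second CCAAT box. Of windows of the same length and place at 32817 starts, 18.5% held the RBPJ motif, 29.6% a CCAAT box and 0.993% the NFI pair. Place is counted from the RefSeq start, and every such window begins 250 bases upstream of it. The windows printed above end at the first exon base, while the others were cut to the same length and stop short of their start. The Dbi window held 1 CCAAT box, against 12.3% of such windows. A second RefSeq start of Dbi has the window chr1:120121097-120121346 (250 bases, minus strand), which held no match to any of the motifs. It overlaps the first window at chr1:120121097-120121169 and reaches farther upstream. The CCAAT box, at chr1:120121091-120121095, lies outside it and downstream of that second start. The PPAR repeat and the sterol element had no match in either window, and 0.0305% and 0.85% of windows of the Fabp7 length held them. A match is a string of letters and was not tested as a binding site.

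Fabp7 was highest in radial glia-like cells (RGL; stem-like cells with Hopx and Frzb among their leading genes), with 2710 and 3284 CPM. Oligodendrocyte precursor cells (OPC) followed with 1710 and 1829 CPM, and astrocytes with 1016 and 959 CPM. Neurogenic intermediate progenitors (nIPC; Neurog2 and Eomes among their leading genes) had 454 and 442 CPM. Their cluster was led by Hells, Ccnd2, Pclaf, Uhrf1 and Mcm6, and scored 1.68 for nIPC and 0.67 for cycling markers, on a log2 scale. The cycling cluster and the Eomes-led neuroblast cluster scored higher for nIPC markers, at 2.03 and 2.90. Cycling cells, marked by Top2a and Mki67, had 415 and 462 CPM, a range that overlaps that of nIPC. Below them came premyelinating oligodendrocytes at 254 and 326 CPM, erythroid cells at 106 and 236 CPM, and neuroblasts at 89.1 and 87.6 CPM. The erythroid level came from few cells, with a Fabp7 UMI in 14.9% of 67 and 33.3% of 21, against 36.5% and 31.0% of neuroblasts. No other 2 neighbours among these 8 classes overlapped between libraries. All other classes were under 30 CPM, where most neighbours in the order overlapped.

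Dbi was also highest in RGL, with 8199 and 8747 CPM. Astrocytes had 4268 and 3968 CPM and OPC had 3455 and 3380 CPM. Choroid plexus cells had 4577 and 2065 CPM, which overlaps OPC, but library 1 held 29 such cells and library 2 held 339. Their Calml4-led cluster had 4885 and 3670 CPM, and their Enpp2-led cluster, with 1 and 111 cells, had 2005 and 1529 CPM. The Calml4-led cluster scored 3.43 for choroid plexus markers and 2.44 for ependymal markers. Levels were 1976 and 1922 CPM in nIPC, 1393 and 1487 CPM in oligodendrocytes, and 1195 and 1286 CPM in cycling cells. Neuroblasts had 224 and 226 CPM, close to endothelial cells at 231 and 261 CPM. Microglia had 120 and 132 CPM. The lowest class was the granule neurons, at 83.3 and 106 CPM, so all 18 classes held Dbi.

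Fabp5 was ordered differently. Astrocytes had 1821 and 2363 CPM, the highest of all classes in both libraries. Neuroblasts (1443 and 1602 CPM), premyelinating oligodendrocytes (1202 and 1569 CPM), cycling cells (1180 and 1205 CPM), nIPC (1084 and 1206 CPM) and RGL (1001 and 1254 CPM) followed, and each overlapped its neighbour. Oligodendrocytes had 959 and 951 CPM, and OPC 115 and 259 CPM. Pericytes had 171 and 144 CPM, microglia 23.0 and 38.8 CPM and endothelial cells 13.2 and 24.4 CPM.

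**Figure D1:**
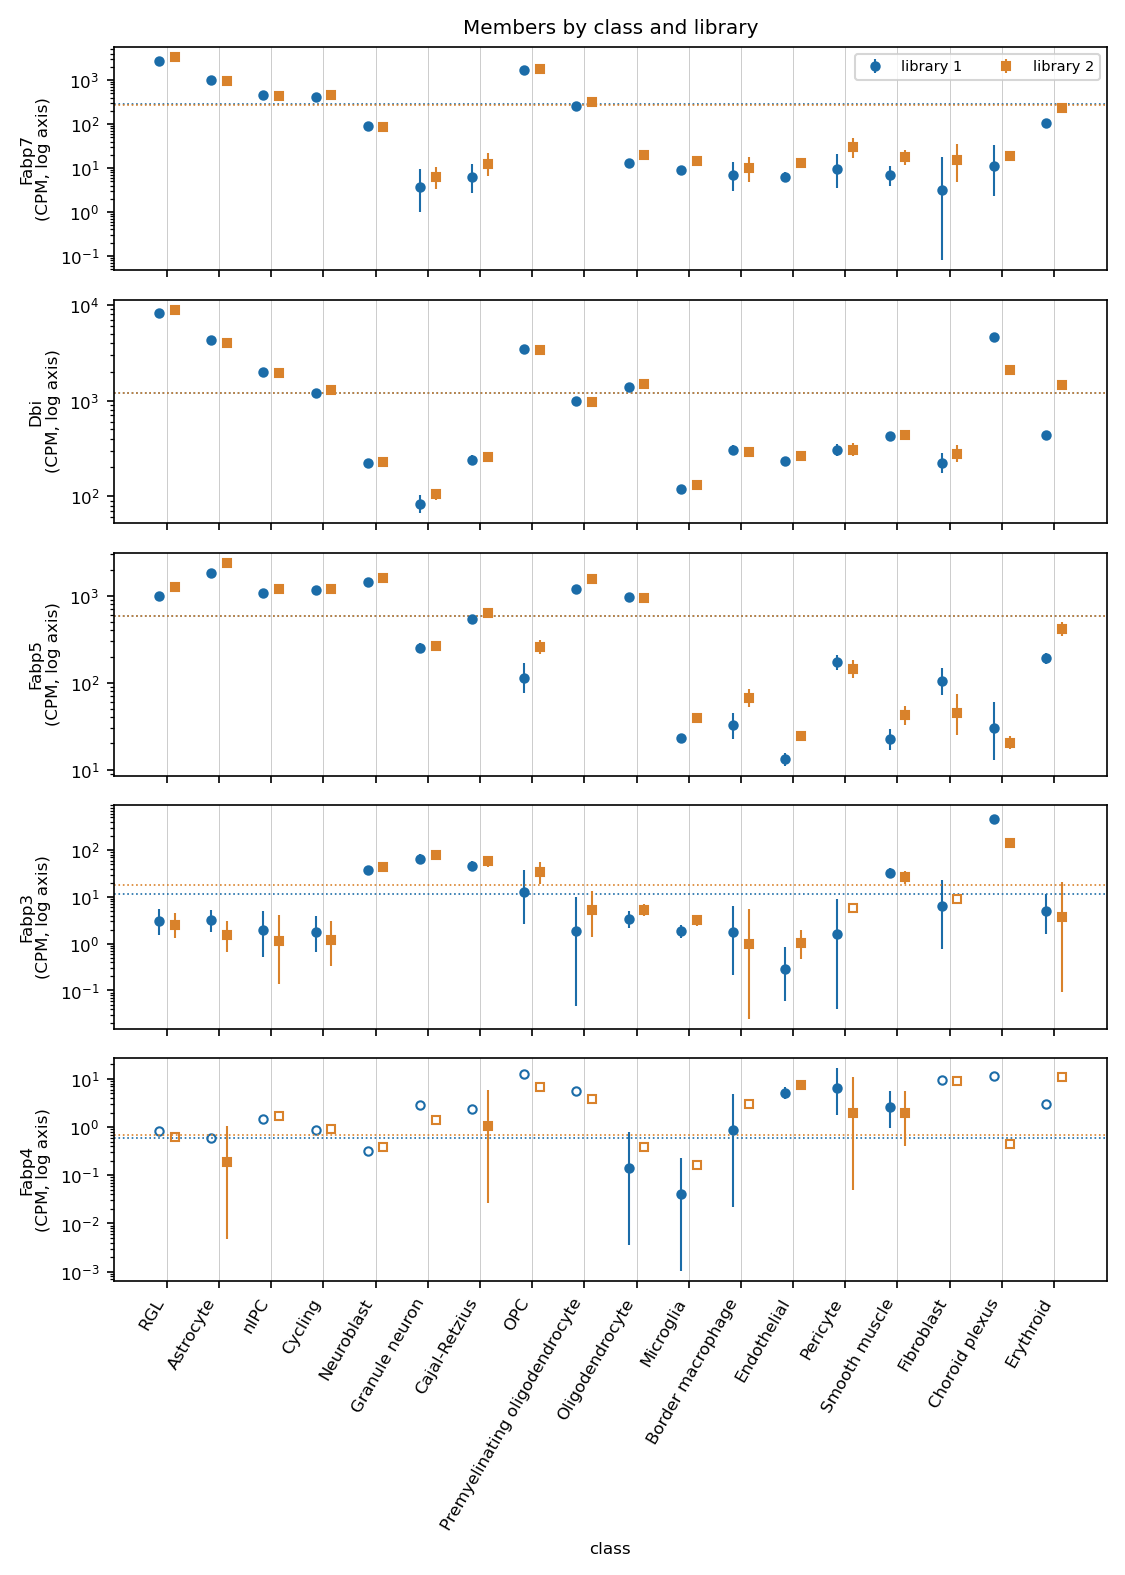
Level of each member by class and library, in CPM on a log axis, with exact Poisson 95% intervals that cover counting error. Open symbols mark classes with 0 UMIs, drawn at the limit of 3 counts, and dotted lines mark the level in free RNA of each library. Fabp7 and Dbi stand highest in RGL, Fabp5 in astrocytes, Fabp3 in choroid plexus cells.

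Fabp3 was highest in choroid plexus cells and neuronal classes, and rested on few UMIs in the stem and progenitor classes. Choroid plexus cells had 460 and 142 CPM, from 122 and 971 UMIs. Those cells came from a Calml4-led cluster with 502 and 322 CPM, and an Enpp2-led cluster with 1 cell in library 1 and 111 in library 2, where Fabp3 was at 81.6 CPM. Granule neurons had 64.6 and 80.3 CPM. Cajal-Retzius cells, early-born neurons that secrete Reln, had 46.0 and 57.6 CPM, and neuroblasts 36.8 and 42.8 CPM. Smooth muscle cells followed with 32.8 and 26.3 CPM, from 75 and 41 UMIs, and OPC with 12.7 and 33.5 CPM, from 3 and 15 UMIs. RGL had 11 and 12 UMIs (3.09 and 2.54 CPM), and astrocytes 16 and 8 UMIs.

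Fabp4 was carried by few cells. In endothelial cells it had 54 and 66 UMIs (5.15 and 7.60 CPM). In library 1, 8 cells of an Igfbp3- and Sox17-led endothelial cluster held all 54, and in library 2, 11 cells of that cluster held 65, with 24 in a single cell. Pericytes had 4 and 1 UMIs, each from 1 cell. RGL, nIPC, cycling cells, neuroblasts and OPC had 0 UMIs in both libraries.

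Free RNA, measured in barcodes under 100 UMIs, held all 5 members. It had 1204 and 1201 CPM of Dbi, 580 and 581 CPM of Fabp5 and 286 and 270 CPM of Fabp7. Subtracting it at a share estimated per class left endothelial cells at 0 and 0 CPM for both Fabp5 and Fabp7. Microglia kept 5.96 and 17.4 CPM of Fabp5 and 0.683 and 4.45 CPM of Fabp7. Dbi remained at 86.3 and 89.3 CPM in microglia and 163 and 168 CPM in endothelial cells. RGL had 2814 and 3377 CPM of Fabp7 and 8501 and 8979 CPM of Dbi after the same step.

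Detection in single cells followed these levels. Fabp7 had a UMI in 98.7% and 98.5% of RGL (median 7448 and 6799 UMIs per cell), and in 6.32% and 7.87% of microglia (median 7823 and 6898 UMIs), which serve as background. With every cell thinned to 1000 UMIs, the shares were 80.2% and 86.8% in RGL and 1.07% and 1.42% in microglia. Dbi, thinned alike, was found in 99.2% and 98.7% of RGL and in 11.0% and 12.5% of microglia. Fabp5 and Fabp7 were found together in 444 of 470 RGL (94.5%) and 637 of 680 (93.7%). In astrocytes they were found together in 716 of 919 cells (77.9%) and 735 of 926 (79.4%).

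Per 10000 UMIs, a median RGL cell held 78.5 and 84.0 Dbi UMIs, with 45.4 to 122 and 47.4 to 128 between the 10th and 90th percentiles. Fabp7 ran from 7.35 to 54.2 and from 8.69 to 65.0 among the same cells, around medians of 21.8 and 25.8. These ranges include the counting error of single cells, which was not taken out. Among astrocytes the 10th percentile of Fabp7 was 0 in both libraries and the 90th was 28.6 and 25. In cycling cells Dbi ran from 2.04 to 31.8 and from 2.97 to 34.4, with medians of 9.03 and 10.4.

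**Figure D2:**
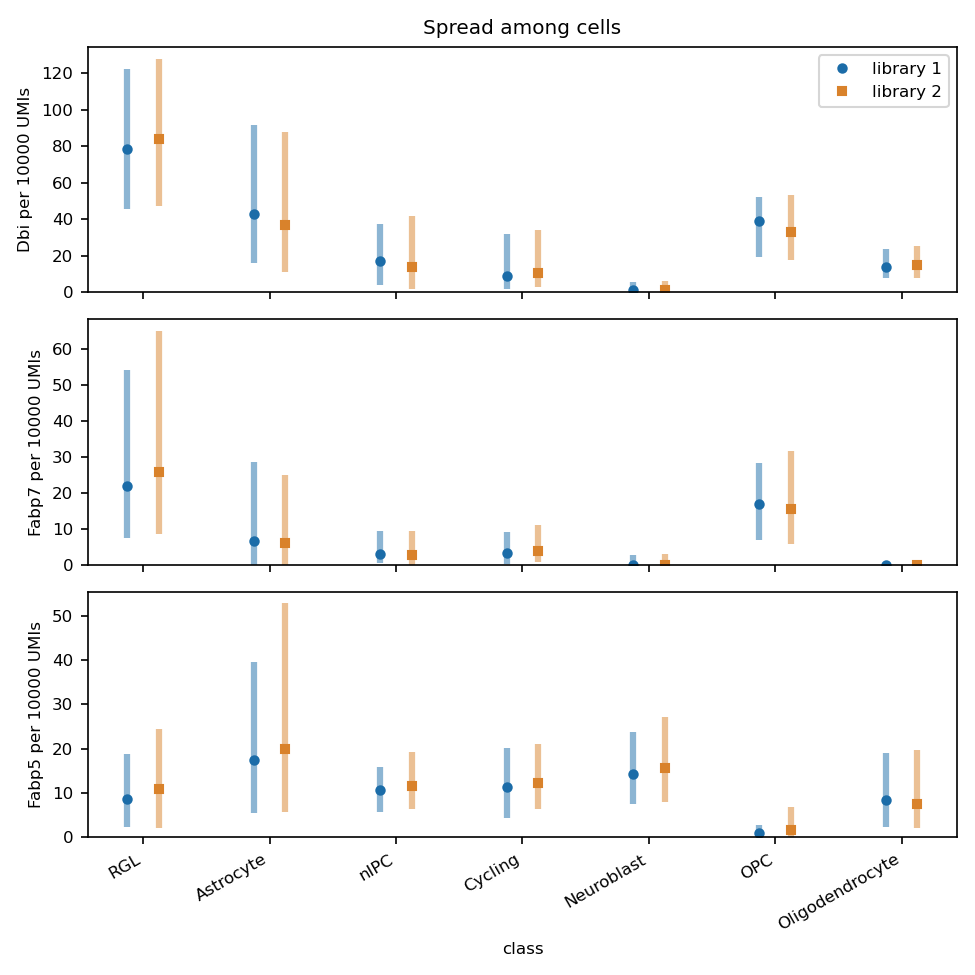
UMIs of Dbi, Fabp7 and Fabp5 per 10000 UMIs of a cell in 7 classes and both libraries; symbols are medians and lines run from the 10th to the 90th percentile over cells. The RGL medians of Dbi, 78.5 and 84.0, lie above those of every other class drawn.

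The balance of Fabp5 and Fabp7 was followed as the Fabp5 share of the UMIs of both genes. Tags near the end of a transcript are not scaled by length, so the share is compared between classes and not read as the ratio of the proteins. In RGL it was 27.0% (exact 95% binomial interval 26.2 to 27.7) and 27.6% (27.0 to 28.2). It was 64.2% and 71.1% in astrocytes, 70.5% and 73.2% in nIPC, 74.0% and 72.3% in cycling cells, and 94.2% and 94.8% in neuroblasts. Among neuroblasts the Eomes-led cluster had 89.7% and 90.3% and the Calb2-led cluster 98.5% and 98.3%. The Eomes-led cluster scored 3.07 for neuroblast and 2.90 for nIPC markers. Along the oligodendrocyte lineage the share was 6.28% and 12.4% in OPC, 82.5% and 82.8% in premyelinating oligodendrocytes and 98.7% and 97.9% in oligodendrocytes. Microglia (71.5% and 72.7%) and endothelial cells (68.0% and 65.2%) were near the free RNA, at 67.0% and 68.3%. Within microglia the Ccl4- and Tnf-led cluster was higher, at 85.0% (80.4 to 88.9) and 81.7% (77.6 to 85.2), and the Atf3-led cluster was at 64.5% and 66.5%.

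**Figure D3:**
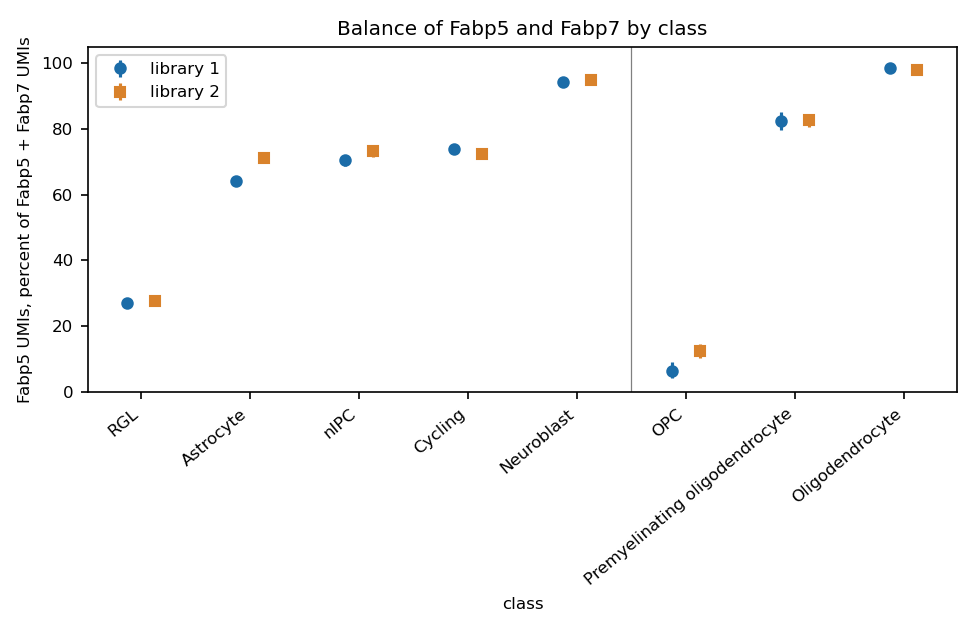
Fabp5 as a percentage of Fabp5 plus Fabp7 UMIs in 8 classes, with exact binomial 95% intervals, by library; a grey line separates the neurogenic classes from the oligodendrocyte lineage. RGL and OPC, at 27.0% and 27.6% and at 6.28% and 12.4%, are the classes below the others.

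In all, 8 pairs of classes were tested on counts summed per library and class, in 1 edgeR fit of 15174 genes with library as a block. The p-values are Benjamini-Hochberg adjusted over all genes of a comparison, from the 2-sided quasi-likelihood test. They measure how far class levels vary between the 2 libraries once the library block is taken out, over all 18 classes. They do not measure the spread between mice. Each library is a pool of mice of 1 genotype, so this spread also holds any genotype effect that differs by class. Genes of related function are given by 5 lists: other lipid-binding proteins of the same fold, acyl-CoA binding domain genes, fatty acid uptake and activation, PPAR and RXR receptors with their targets, and endozepine targets. In the first list 4 of 11 genes were tested, and some had too few UMIs for a fold, so its medians are not read.

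RGL differed from astrocytes by more Fabp7 and Dbi and less Fabp5. The log2 fold was 1.23 ± 0.21 (SE) for Fabp7 (edgeR adjusted p = 1.342e-05), 0.69 ± 0.25 for Dbi (adjusted p = 0.02968) and -1.24 ± 0.23 for Fabp5 (adjusted p = 4.089e-05). These 3 of 5 members (2 higher, 1 lower) stand beside 32.5% of all genes called in this comparison, 15% higher and 17.5% lower. Fabp3 was not called (-0.09 ± 0.69, adjusted p = 0.968), and Fabp4 had 0 and 0 UMIs in RGL and 0 and 1 in astrocytes, too few for a fold. The Dbi call was lost without the library block (adjusted p = 0.05701) and with DESeq2 (adjusted p = 0.1281). The classes also differed in depth and mitochondrial share: the medians were 7448 and 6799 UMIs and 6.26% and 7.35% in RGL, and 4648 and 5058 UMIs and 10.0% and 11.0% in astrocytes. With shallow clusters left out, an alternative chosen after seeing the data, the log2 folds were 1.38 for Fabp7, 0.84 for Dbi and -1.11 for Fabp5, all called. The main RGL cluster scored 1.97 for RGL markers and 1.78 for astrocyte markers, on a log2 scale.

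Of 13 fatty acid uptake and activation genes tested between RGL and astrocytes, 7 fell, none rose and 6 did not pass, with a median log2 fold of -1.03 against -0.01 over all genes. Mfsd2a, a transporter of lysolipids that carry docosahexaenoic acid, had 16.0 and 12.5 CPM in RGL and 229 and 225 CPM in astrocytes. Acsl6, an acyl-CoA synthetase, had 181 and 176 CPM in RGL and 653 and 646 CPM in astrocytes. Of 9 PPAR and RXR genes 4 fell and none rose, among them Ppara (log2 fold -1.71), with a list median of -0.09. Of 4 other lipid-binding genes 1 fell and none rose. The list median of -0.07 rested on genes whose log2 folds were 0 in both libraries. Of 7 acyl-CoA binding domain genes, 1 fell, Eci2, with a median of 0.04. These counts depended on scaling. With total-count scaling, 1 rose and 6 fell among uptake and activation genes. On that scale 2 rose and 3 fell among PPAR and RXR genes, and 3 rose and 1 fell among acyl-CoA binding domain genes. Among 6 endozepine targets Tspo rose, at 64.6 and 50.8 CPM in RGL against 20.3 and 11.3 CPM in astrocytes, and the GABA-A subunit gene Gabra2 fell (log2 fold -2.54). Their median was -0.78.

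In nIPC, both Fabp7 and Dbi were far lower than in RGL while Fabp5 was not called. The log2 fold was -2.99 ± 0.22 for Fabp7 (edgeR adjusted p = 2.761e-13) and -2.39 ± 0.26 for Dbi (adjusted p = 1.718e-09). Fabp5 was at -0.24 ± 0.22 (adjusted p = 0.416) and Fabp3 at -1.08 ± 1.00 (adjusted p = 0.406). These 2 of 5 members, both lower, stand beside 45.2% of all genes called, 19.3% higher and 26% lower. Median UMIs per cell were 15255 and 13169 in nIPC and 7448 and 6799 in RGL, and depth was not matched in the fit. Counting the Eomes-led neuroblast cluster as nIPC, chosen after seeing the data, gave -3.76 for Fabp7 and -3.51 for Dbi, and turned Fabp3 to 1.81 (adjusted p = 0.001709).

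Of 13 uptake and activation genes 2 rose and 5 fell, with a median of -0.63 against -0.11 over all genes. Acsl3, an acyl-CoA synthetase of the endoplasmic reticulum and lipid droplets, had 199 and 171 CPM in nIPC and 1472 and 1277 CPM in RGL. Slc27a3 rose (log2 fold 3.34). Among the 9 PPAR and RXR genes 6 fell and none rose (median -1.57), among them Cpt1a, which admits fatty acids to mitochondria, at 11.7 and 8.44 CPM in nIPC and 45.2 and 41.5 CPM in RGL. Of 7 acyl-CoA binding domain genes 1 rose and 3 fell (median -0.40), with Acbd4 at a log2 fold of -3.14. Of 6 endozepine targets 2 fell (median -1.48). Of 4 other lipid-binding genes none passed. Their median of 0.14 rested on genes whose log2 folds were 0 in both libraries.

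Cycling cells were set against the same RGL sums, and 2 of 5 members were called. Fabp7 fell by 2.87 (SE 0.22, edgeR adjusted p = 2.94e-13) and Dbi fell by 2.87 (SE 0.27, adjusted p = 2.218e-11) on the log2 scale. Fabp5 and Fabp3 were not called, while 53.8% of all genes were, 23.3% higher and 30.6% lower. Median UMIs per cell were 16674 and 15704 in cycling cells, above those of RGL. Uptake and activation genes rose in 2 and fell in 5 of 13 (median -0.13, all genes -0.11). Acsbg1, an acyl-CoA synthetase, had 9.48 and 14.6 CPM in cycling cells and 229 and 226 CPM in RGL. Among the 9 PPAR and RXR genes 7 fell and none rose (median -1.87). Of 7 acyl-CoA binding domain genes 1 rose and 3 fell (median -0.40), and of 6 endozepine targets 2 fell (median -0.59), among them Tspo, with 39.1 and 28.6 CPM in cycling cells and 64.6 and 50.8 CPM in RGL. None of 4 other lipid-binding genes passed (median -0.55).

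Neuroblasts had less Dbi and Fabp7 than nIPC and more Fabp3. The log2 folds were -2.90 ± 0.27 for Dbi (edgeR adjusted p = 5.113e-11), -2.13 ± 0.22 for Fabp7 (adjusted p = 8.451e-10) and 4.84 ± 0.54 for Fabp3 (adjusted p = 4.756e-09). Fabp3 had 4 and 2 UMIs in nIPC, and the fold was 2.51, and that of Dbi -2.21, with the Eomes-led cluster counted as nIPC, where 4043 genes were called against 6238. Fabp5 rose by 0.63 ± 0.23 (adjusted p = 0.02396), a call held under 7 of 13 alternatives and lost without the library block (adjusted p = 0.08902). These 4 of 5 members (2 higher, 2 lower) compare with 41.1% of all genes, 23.1% higher and 18% lower. Neuroblast clusters differed among themselves: the Calb2-led cluster had 56.7 and 59.7 CPM of Fabp3 and 23.3 and 29.5 CPM of Fabp7, and the Eomes-led cluster 15.8 and 17.0 CPM of Fabp3 and 148 and 151 CPM of Fabp7. Of 6 endozepine targets 3 rose and 1 fell (median 3.78, all genes 0.09), among them Gabra2, with 76.1 and 80.3 CPM in neuroblasts and 3.41 and 3.38 CPM in nIPC. Of 13 uptake and activation genes none rose and 4 fell (median -0.06), and of 9 PPAR and RXR genes none rose and 2 fell (median -0.11). Acyl-CoA binding domain genes rose in 2 and fell in 1 of 7 (median 0.29), and 1 of 4 other lipid-binding genes rose (median 0.02). With total-count scaling 0 acyl-CoA binding domain genes rose and 1 fell. The gene that fell in the main fit, Dbil5, had 4 and 5 UMIs in each of the 2 classes.

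**Figure D4:**
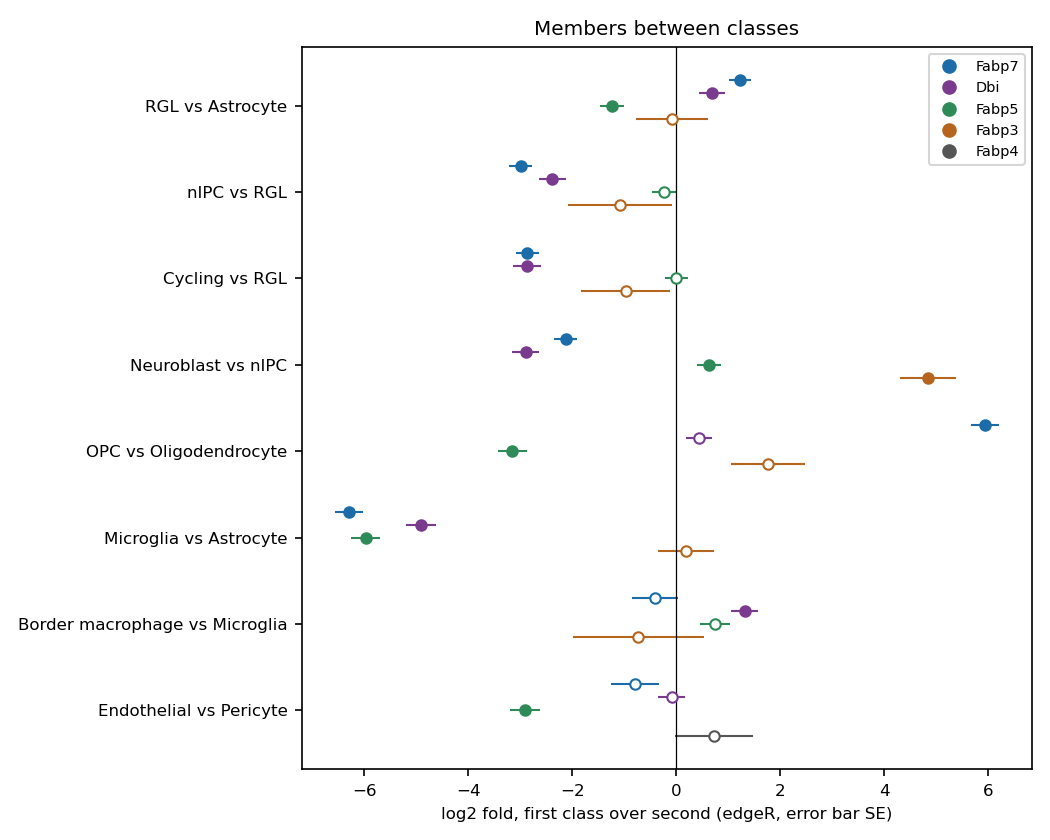
Log2 fold of each member in 8 comparisons of classes (first-named over second), with SE; filled symbols passed adjusted p of at most 0.05 and open ones did not. Fabp7 lies at 1.23 for RGL against astrocytes, at -2.99 and -2.87 for nIPC and cycling cells against RGL, and at 5.93 for OPC against oligodendrocytes.

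In the oligodendrocyte lineage, OPC had far more Fabp7 and far less Fabp5 than oligodendrocytes. Fabp7 had 1710 and 1829 CPM in OPC and 13 and 20.2 CPM in oligodendrocytes (log2 fold 5.93 ± 0.27, edgeR adjusted p = 3.394e-19). Fabp5 had 115 and 259 CPM in OPC and 959 and 951 CPM in oligodendrocytes (-3.16 ± 0.28, adjusted p = 8.956e-12). Dbi (0.43 ± 0.25, adjusted p = 0.190) and Fabp3 (1.76 ± 0.72, adjusted p = 0.05205) were not called, but total-count scaling, which raised the median of all genes by 0.70, gave 1.25 for Dbi (adjusted p = 0.0004339), 6.75 for Fabp7 and -2.34 for Fabp5. In library 1 alone, without library 2, Fabp5 was at -3.90. Of all genes 37.6% were called, 19% higher and 18.6% lower, against these 2 of 5 members, and OPC numbered 25 and 56 cells. Median UMIs per cell were 9464 and 7566 in OPC and 23807 and 21762 in oligodendrocytes, and depth was not matched in the fit. Of 13 uptake and activation genes 4 rose and 3 fell (median -0.12, all genes -0.04), with Mfsd2a at 242 and 284 CPM in OPC and 2.24 and 6.83 CPM in oligodendrocytes. Of 6 endozepine targets 4 rose and none fell (median 4.14), a count that rests on few UMIs in OPC. Of 9 PPAR and RXR genes 2 rose and 1 fell (median -0.92), of 7 acyl-CoA binding domain genes 1 rose and 2 fell (median -0.05), and 1 of 4 other lipid-binding genes rose (median -0.01).

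Microglia, the resident macrophages of the brain, were lower than astrocytes in 3 of the 5 members, where 71.4% of all genes were called, 37.5% higher and 33.9% lower. The log2 fold was -6.30 ± 0.26 for Fabp7 (edgeR adjusted p = 2.471e-21), -5.98 ± 0.28 for Fabp5 (adjusted p = 4.586e-20) and -4.91 ± 0.29 for Dbi (adjusted p = 4.925e-17). A Ccl4- and Tnf-led microglial cluster had 41.9 and 51.0 CPM of Fabp5, and an Atf3-led one 14.9 and 21.2 CPM. Of 13 uptake and activation genes 4 rose and 5 fell (median -0.22, all genes 0.06), among them Acsl6, which fell, with 2.45 and 3.70 CPM in microglia and 653 and 646 CPM in astrocytes. Of 9 PPAR and RXR genes 4 rose and 5 fell (median -1.03). Of 6 endozepine targets 1 rose and 1 fell (median -0.72), and the riser was Tspo, often used to image microglia, with 53.1 and 55.2 CPM in microglia and 20.3 and 11.3 CPM in astrocytes. Acyl-CoA binding domain genes rose in 1 and fell in 4 of 7 (median -1.40), and 1 of 4 other lipid-binding genes fell (median 0.12).

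Border macrophages, which line vessels and meninges, had more Dbi than microglia, at 306 and 290 CPM against 120 and 132 CPM (log2 fold 1.31 ± 0.26, edgeR adjusted p = 0.0001585). Fabp5 was not called (0.75 ± 0.29, adjusted p = 0.05703), nor were Fabp7 and Fabp3, and Fabp4 had 1 and 0 UMIs in each class, too few for a fold, so 1 of 5 members was higher, while 25% of all genes were called, 11.9% higher and 13.1% lower. Uptake and activation genes rose in 3 and fell in 3 of 13 (median 0.13, all genes -0.12), but 1 of the 3 that rose, Slc27a6, had 4 and 0 UMIs in border macrophages and none in microglia. Cd36, a scavenger receptor that takes up fatty acids, had 311 and 324 CPM in border macrophages and 0.361 and 0.272 CPM in microglia. Lpl, a lipase, had 0.874 and 4.97 CPM in border macrophages and 42.2 and 63.5 CPM in microglia. Of 9 PPAR and RXR genes 3 rose (median 0.51), but Pdk4 among them had 3 and 0 UMIs in border macrophages and 0 and 1 in microglia, and was lower in library 2. The list included Plin2, a coat protein of lipid droplets, which rose, at 433 and 479 CPM in border macrophages and 52.0 and 51.7 CPM in microglia. Tspo rose among 6 endozepine targets (median 0.39). Of 7 acyl-CoA binding domain genes 1 rose and 2 fell (median -0.53). Rbp7 passed among 4 other lipid-binding genes (median 0.39) from 0 and 6 UMIs in border macrophages and none in microglia.

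In vascular cells, endothelial cells had less Fabp5 than pericytes, at 13.2 and 24.4 CPM against 171 and 144 CPM (log2 fold -2.91 ± 0.29, edgeR adjusted p = 1.877e-10). It was -2.04 with marked doublets kept. Fabp5 had a UMI in 32.5% and 37.3% of pericytes, and a single cell held 33 of the 106 UMIs in library 1. Dbi (-0.09 ± 0.27, adjusted p = 0.860), Fabp7 (-0.79 ± 0.46, adjusted p = 0.211) and Fabp4 (0.72 ± 0.76, adjusted p = 0.555) were not called, and Fabp3 had too few UMIs for a fold. This 1 of 5 members, lower, stands beside 31.1% of all genes called, 16.7% higher and 14.4% lower. Of 13 uptake and activation genes 3 rose and 1 fell (median 0.35, all genes 0.11), with Mfsd2a, the lysolipid transporter of the blood-brain barrier, at 475 and 425 CPM in endothelial cells and 0 and 3.94 CPM in pericytes. With total-count scaling 1 of these genes rose and 2 fell, and with DESeq2 1 rose and 1 fell. Of 9 PPAR and RXR genes 2 rose and 2 fell (median 0.23), with Cpt1a at 115 and 123 CPM in endothelial cells and 45.3 and 45.3 CPM in pericytes. Acyl-CoA binding domain genes rose in 3 and fell in 1 of 7 (median 1.00). Tspo rose (log2 fold 1.05) among 6 endozepine targets and the other 5 were not called, so their median of 2.95 is not read as a rise of the list. Of 4 other lipid-binding genes 1 rose (median 2.60).

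Clusters within a class showed how the members vary beside depth. The deeper astrocyte cluster, with Aqp4 first among its leading genes, had 1653 and 2150 CPM of Fabp5, 909 and 862 CPM of Fabp7 and 3808 and 3598 CPM of Dbi. A shallow astrocyte cluster led by Mt2 (median 1807 and 1792 UMIs) had 2800 and 4553 CPM of Fabp5, 1643 and 1956 CPM of Fabp7 and 6948 and 7776 CPM of Dbi. All 3 members were higher in the shallow cluster in both libraries, and the part of depth in this was not tested. A small shallow cluster of 15 and 17 cells, named RGL because Tnc was among its leading genes although it scored 1.45 for astrocyte and 1.33 for RGL markers, had 971 and 550 CPM of Fabp7, against 2725 and 3304 CPM in the main RGL cluster.

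**Figure D5:**
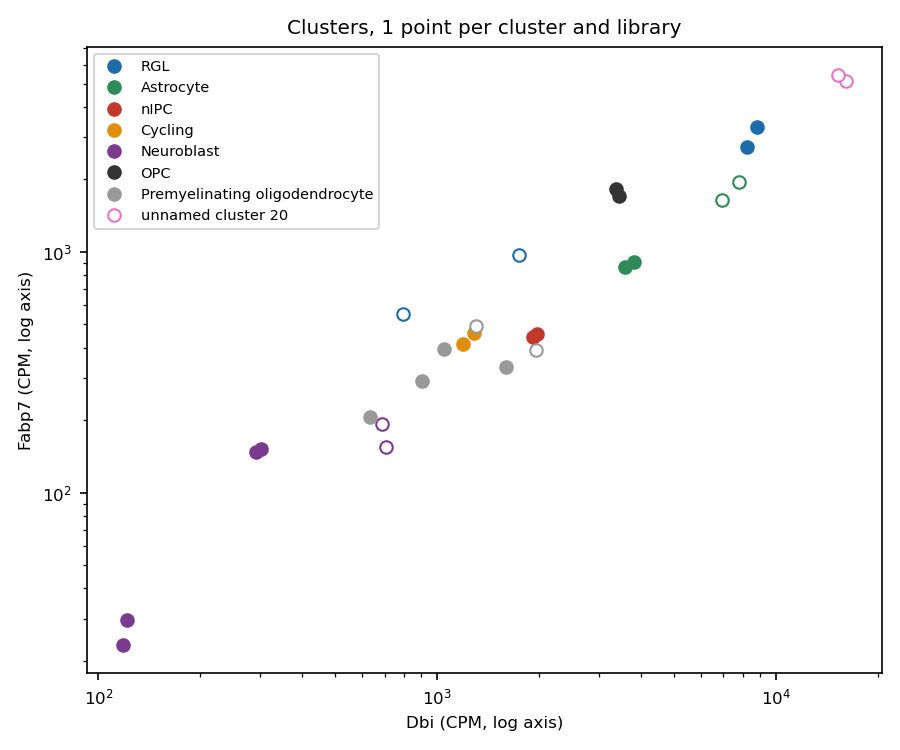
Fabp7 against Dbi by cluster and library, both in CPM on log axes, coloured by class; open symbols are clusters with a median under 3000 UMIs. The unnamed cluster led by Riiad1 and Fabp7 lies at the top right, at 5138 and 5405 CPM of Fabp7 and 16119 and 15230 CPM of Dbi.

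The genes most like each member were ranked by Pearson correlation of log2(CPM + 10) over 36 sums of 18 classes, among 14607 genes, as a description. The sums share 2 libraries and related classes. Fabp7 was closest to Ptprz1 (r = 0.961), Sox21 (0.938) and Npas3 (0.937). Dbi was closest to Metrn (0.891), Diaph3 (0.854) and Asrgl1 (0.835), Fabp5 to Gnao1 (0.871), Ncam1 (0.869) and Syt11 (0.859), and Fabp3 to Prcd (0.860), Ociad2 (0.841) and Spint2 (0.839). Fabp7 and Dbi had r = 0.784 with each other, Fabp5 and Fabp7 0.624, and Fabp5 and Dbi 0.417.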

How the data were processed

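The deposited table held raw UMI counts per gene and barcode, made by the authors and not normalized, per the file header and its whole-number values. The submitters' processing notes name Cell Ranger 4.0.0, Scanpy 1.7.0 and the build mm10. No per-sample column was left unused.

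Barcodes with at least 1000 UMIs, 500 genes and at most 20% mitochondrial UMIs were kept. Scrublet marked 226 (2.74%) and 252 (3.01%) barcodes as doublets, which were removed. Cells of both libraries were clustered together (scanpy 1.11.5, leidenalg 0.10.2, Python 3.11.15; 3000 variable genes, 40 components, 15 neighbours, Leiden resolution 1) without the members and the listed genes. A cluster that scored for both OPC and premyelinating markers was then clustered again on its own at resolution 0.5. The split of OPC from premyelinating oligodendrocytes rests on this step. Clusters were named from markers of 25 classes. To be named, a cluster had to have 3 or more markers present in 25% of its cells, reach a log2 marker score of 1 on average, and have no unrelated class at 0.75 times that score. Between related classes this close, the name went to the one holding more of the 10 leading genes as markers, and this decided 1 small RGL cluster. Shallow clusters (median UMIs more than 3 times below that of the library) with no own marker among those genes stayed unnamed. The scoring details were set with the data in view.

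Counts were summed per library and class (at least 20 cells in each library; 36 sums) and compared in edgeR 4.0.16 (R 4.3.3) after filterByExpr and TMM scaling, with the quasi-likelihood F test, library as a block and 17 residual degrees of freedom. Calls had an adjusted p of at most 0.05. Both classes of a comparison came from the same library, which is the source of the pairing. SE was derived from the F statistic. DESeq2 1.42.0 and the other alternatives are given in the closing section, and the fit was tested on simulated data. Poisson and binomial intervals are exact at 95% and cover counting error only, and the limit for a count of 0 is 3 counts. Pseudogene copies were sought with BLAST 2.17.0.

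The members and lists were chosen with earlier results of these data known. Of each list, up to 3 genes with the largest absolute fold among those called could be named, and the text names some of these. Some listed genes are not reported here by name.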

Additional observations from a re-analysis of the deposited data

Results flagged for a closer look

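Signals above those of every named class appeared in 2 unnamed clusters, which entered no comparison of the report. A shallow cluster of 102 and 130 cells (median 1766 and 1914 UMIs), led by Riiad1, Fabp7, Hopx, Pantr1 and Dbi, had 16119 and 15230 CPM of Dbi and 5138 and 5405 CPM of Fabp7. The highest values in a named class were 8747 CPM of Dbi and 3284 CPM of Fabp7, both in RGL of library 2. Fabp5 made up 28.2% and 28.7% of the Fabp5 and Fabp7 UMIs in this cluster, against 27.0% and 27.6% in RGL. The cluster scored 1.48 for RGL markers and 1.09 for astrocyte markers and stayed unnamed because fewer than 3 RGL markers were found in enough of its cells. It was counted as RGL in 1 of the processing alternatives. Its median mitochondrial share was 12.8%, against 6.91% in the main RGL cluster. Shallow clusters of astrocytes (6948 and 7776 CPM) and neuroblasts (707 and 686 CPM) also had more Dbi than the deeper clusters of their class. The small shallow RGL cluster had less, at 1741 and 794 CPM. The part of depth in these levels was not tested.

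A second unnamed cluster of 33 and 34 cells, led by H2-Aa, H2-Eb1, H2-Ab1, Cd74 and Plac8, had 26 and 23 UMIs of Fabp4, or 99.4 CPM (exact Poisson 95% interval 64.9 to 146) and 89.9 CPM (57 to 135). The highest value of a named class was 7.60 CPM, in endothelial cells of library 2. The UMIs came from 7 cells (21.2%) and 5 cells (14.7%).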

How the results depend on the processing

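Under 13 tested alternatives, called folds kept their direction and their call except for Dbi between RGL and astrocytes and Fabp5 between neuroblasts and nIPC. The fit with no replicate block (library not a term) gave 0.695 for Dbi (adjusted p = 0.05701) and DESeq2 gave 0.689 (0.1281). For Fabp5 between neuroblasts and nIPC the call was lost with total-count scaling (0.412), no replicate block (0.626), doublets kept (0.540), the Eomes-led cluster as nIPC (0.531), shallow clusters left out (0.504) and DESeq2 (0.473). For OPC against oligodendrocytes, Fabp3 passed with total-count scaling (2.59), no filter (1.67), no replicate block (1.75), the 2 classes alone (1.703), the Eomes-led cluster as nIPC (1.77) and DESeq2 (1.93), and Dbi passed with total-count scaling (1.25) and the 2 classes alone (0.527). Fabp5 between border macrophages and microglia passed with the 2 classes alone (0.813). Of uncalled folds that changed sign, Fabp3 between RGL and astrocytes was 0.256 with total-count scaling, 0.0180 with a minimum of 2000 UMIs, 0.109 at resolution 0.5 and 0.110 with the shallow Fabp7-led cluster as RGL. Fabp5 between nIPC and RGL was 0.0318 with total-count scaling. Fabp5 between cycling cells and RGL was 0.0978 with total-count scaling, 0.0129 with no filter, 0.110 with the 2 classes alone, 0.0389 with a mitochondrial limit of 10%, 0.240 with doublets kept, 0.00223 with the Eomes-led cluster as nIPC and 0.155 without shallow clusters. Fabp3 between microglia and astrocytes was -0.162 (10% limit), -0.0475 (doublets kept) and -0.0911 (DESeq2). Fabp7 and Dbi between endothelial cells and pericytes were 0.479 and 0.0580 with doublets kept. Counting the Eomes-led cluster as nIPC turned Fabp3 against RGL to 1.81, which passed, and left 4043 genes called between neuroblasts and nIPC. The causes were not tested. The settings with the shallow or Eomes-led clusters moved were chosen after seeing the data. The fit with no replicate block changed no other member's call than those named. The median over all genes shifted under total-count scaling by 0.32 for RGL against astrocytes, 0.19 for nIPC against RGL, -0.16 for neuroblasts against nIPC and for endothelial cells against pericytes, and 0.70 for OPC against oligodendrocytes. Counts of listed genes called changed with it. Between OPC and oligodendrocytes, acyl-CoA binding domain genes then rose in 4 and fell in 1. In single libraries Fabp7 between RGL and astrocytes was 1.06 to 1.44, Dbi 0.58 to 0.80 and Fabp5 -1.25 to -1.22. Of 180 levels, 68 moved past their counting interval after free RNA was subtracted, and of 180 detection shares 139 moved after thinning.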
